A study of Mus musculus with 10 samples.

Results

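The genes described here are 35 enzymes of mitochondrial fatty acid oxidation and of the tricarboxylic acid (TCA) cycle, found in the table by their gene symbols. All 35 were among the 15075 genes in the deposited table, and all 35 were among the 11244 genes abundant enough to be tested. The list divides into 19 fatty acid oxidation enzymes and 16 TCA enzymes. Of the 16, 13 act in the mitochondrion and 3 are cytosolic forms. RNA came from the interscapular brown adipose tissue (iBAT) of 5 Control and 5 AdCKO mice, 1 library per mouse. The mice were C57BL/6, aged 20 weeks and housed at room temperature. AdCKO mice carried an Adipoq-Cre transgene together with Crls1 alleles whose exon 4 is floxed. Control mice carried the floxed alleles and no Cre, and the labels name them wild-type. Crls1 encodes cardiolipin synthase, which makes the signature phospholipid of the inner mitochondrial membrane. Adipoq-Cre acts in adipocytes of every fat depot, so other cells of the tissue keep the gene. The comparison asks how RNA of the fuel-burning enzymes differs in brown fat whose adipocytes lack cardiolipin synthase.

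Brown adipocytes burn fatty acids to make heat. A fatty acyl-CoA enters the mitochondrion as a carnitine ester, and is then shortened in repeated rounds of dehydrogenation, hydration, a further dehydrogenation and thiolysis by enzymes that each prefer a range of chain lengths. The acetyl-CoA released is oxidised by the TCA cycle, and both routes pass electrons to the respiratory chain in the inner membrane.

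Values are normalized reads per kb of counted exon, in which genes can be compared with each other, and they are not counts. Fold changes are differences of log2(value + 1), AdCKO minus Control, with their standard error (SE), from limma with Benjamini-Hochberg adjustment over the 11244 genes. The threshold for a call was an adjusted p below 0.01. Such fold changes understate the change of genes with low values. Crls1 itself (mm9 chr2:132672402-132692504, plus strand) read 1291, 927, 813, 1101 and 1169.8 in the Control libraries and 193, 195, 249, 208 and 242 in the AdCKO libraries, so its RNA was 20.5% of Control in tissue that holds several cell types (log2 fold change -2.27, SE 0.13, limma adjusted p = 3.53e-08). That value counts reads over 1907 bases of the transcript, while Cre removes only the floxed exon. Reads from the remaining exons of recombined cells would count too, so the percentage does not measure intact Crls1 RNA. The normalized reads summed over all genes came to 7615403 to 8171138 per Control library and 5419800 to 5843024 per AdCKO library. The 9 brown adipocyte markers were present in every library, with summed levels of 207079 to 234251 in Control and 130274 to 154951 in AdCKO, and 5 of the 9 were called lower. The sums are mostly Fabp4, a fatty acid-binding protein of all adipocytes, which was not called (147241 and 108235, log2 fold change -0.44). Its AdCKO values nevertheless all lay below its Control values. Ppara (-0.54), Elovl3 (-0.06) and Dio2 (0.90) were not called either. Among the 5, Ucp1, the heat-producing uncoupling protein, had means of 36912 in Control and 14069 in AdCKO. Ucp1 and Cidea stood at 38.1% and 34.2% of Control, and Adipoq, Plin1 and Pparg at 70.2%, 65.3% and 72.7%. The 8 macrophage markers were called higher in 8 of 8 cases, with sums of 429 to 1206 in Control and 6229 to 8938 in AdCKO. Of 6 fibroblast or progenitor markers 5 were called higher, with sums of 823 to 1137 against 2997 to 4307. Of 5 endothelial markers 1 was called higher, with sums of 1241 to 1584 against 1257 to 1741. Beside these marker counts, 28.0% of all tested genes were called lower and 25.6% higher. The 12 skeletal muscle markers summed to 138 to 205 in Control, and in AdCKO replicates 1 to 5 to 7659, 28270, 247, 11121 and 263. AdCKO replicates 1, 2 and 4 thus held muscle RNA that the other 7 libraries held at low levels. The part of these other cell types in the results below was not tested, and members whose call changes without the 3 libraries are given both ways. In whole tissue, fewer brown adipocytes and less RNA per brown adipocyte cannot be told apart.

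Fatty acid oxidation enzymes were lower in AdCKO at every step after the carnitine entry. Of the 19, 18 were called lower and 1, Cpt1a, was called higher. Over all tested genes 28.0% were called lower and 25.6% higher. In 18 of the 19 every AdCKO library lay below every Control library, against 26.4% of all tested genes, and a log2 fold change of -1 or less was called in 15 of the 19, against 6.16% of all tested genes. The median log2 fold change was -1.35, against -0.01 over all tested genes. Summed over the 19 genes, the level was 93863 to 102131 in the Control libraries (median 96528) and 32088 to 49532 in the AdCKO libraries (median 35744). The share of all normalized reads that fell on them was 2.30% to 2.38% in Control and 1.09% to 1.60% in AdCKO.

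**Figure D1:**
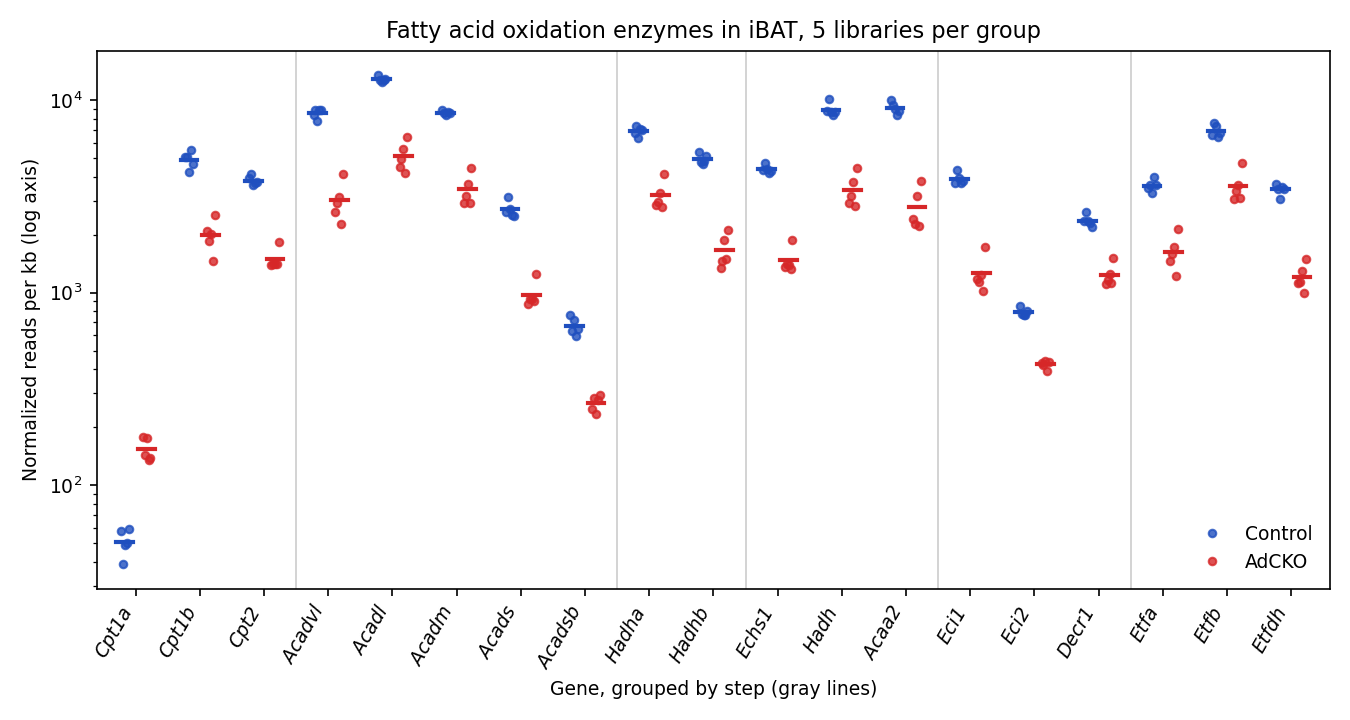
Level of each of the 19 fatty acid oxidation enzymes in every library, in normalized reads per kb on a log axis, ordered by step. Points are single libraries, 5 Control and 5 AdCKO, and bars mark group means. Apart from Cpt1a, where the AdCKO points lie above the Control points, the AdCKO points of each gene lie below its Control points.

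At the carnitine entry the enzymes moved in opposite directions. Carnitine palmitoyltransferase 1, on the outer membrane, makes the acylcarnitine and is the main control point of the pathway. Its liver form is Cpt1a and its muscle form, the main one in brown fat, is Cpt1b. Carnitine palmitoyltransferase 2 (Cpt2), on the inner membrane, turns the acylcarnitine back into acyl-CoA. Cpt1a (mm9 chr19:3323301-3385733, plus strand) read 57.6, 38.8, 48.7, 49.9 and 59.2 in Control and 178, 143, 176, 134 and 139 in AdCKO. The lowest AdCKO library exceeded the highest Control library, and the mean rose to 303% of Control (50.8 ± 8.14 to 154 ± 21.0, SD, n = 5 each, log2 fold change 1.59, SE 0.12, limma adjusted p = 3.88e-07). Cpt1b (mm9 chr15:89246836-89256293, minus strand) read 5079, 5069, 4222, 5535 and 4663 in Control and 2090.01, 1850.5, 2017, 1468 and 2544 in AdCKO, and its mean fell to 40.6% of Control (log2 fold change -1.32, SE 0.13, limma adjusted p = 3.34e-06). The Cpt1b value rests on only 150 counted bases, and 81.4% of its annotated exon bases are shared with Chkb, the neighbouring choline kinase gene on the same strand, so it is uncertain. Cpt2 fell to 39.0% of Control, from 3824 ± 201 to 1491 ± 194 (SD, n = 5 each, log2 fold change -1.37, limma adjusted p = 1.22e-07). Its AdCKO replicates 1 to 4 lay between 1391 and 1417, and replicate 5 reached 1838.

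The ratio of Cpt1b to Cpt1a within a library does not depend on a scaling factor of the library. It was 88.2, 131, 86.6, 111 and 78.8 in the Control libraries and 11.8, 12.9, 11.5, 10.9 and 18.3 in the AdCKO libraries. Its geometric mean went from 97.3 to 12.8, a log2 difference of -2.92 (95% interval -3.37 to -2.50, exact two-sided permutation p = 0.0079, the smallest that 5 against 5 allow, adjusted p = 0.0204 over the 18 ratios examined). Cpt1b remained the more abundant of the pair in every library. For Cpt2 over Cpt1b no difference was found (0.781 and 0.755, log2 difference -0.05, 95% interval -0.28 to 0.22).

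Because Cpt1a was the single member that rose, its promoter is shown here as RefSeq gives it in build GRCm38.p6 (chr19:3323051-3323350, plus strand), 300 bases around the start site. Capitals mark first the letters TGACCT, which read AGGTCA on the other strand and form the core bound by many nuclear receptors. They also mark a CCAAT box and the 3 places where a GC box is read on the other strand as CCGCCC.
Cpt1a promoter: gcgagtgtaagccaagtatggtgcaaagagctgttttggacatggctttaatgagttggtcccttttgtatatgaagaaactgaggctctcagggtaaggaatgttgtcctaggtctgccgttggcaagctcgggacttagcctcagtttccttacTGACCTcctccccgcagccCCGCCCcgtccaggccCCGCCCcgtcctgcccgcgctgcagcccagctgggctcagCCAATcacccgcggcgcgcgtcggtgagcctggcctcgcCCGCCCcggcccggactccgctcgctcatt
The GC content of this window was 62.3%. The letters AGGTCA, read on both strands, were found for 8 of the 31 members with a promoter available (25.8%) and for 15.0% of tested genes with one. Here and below, a gene counts if any of its promoters holds the letters. Counted by promoter instead, 16.3% of all promoters in the table held AGGTCA.

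The acyl-CoA dehydrogenases open each round of the oxidation, and all 5 fell. Their log2 fold changes lay close together in the values as deposited, between -1.53 and -1.33 with a median of -1.35, and further apart with quantile normalization, from -0.46 for Acadl to -1.15 for Acadsb. Acadvl, the very long-chain enzyme (mm9 chr11:69823685-69828930, minus strand), read 8329.7, 8922, 7832, 8943 and 8888 in Control and 2640.1, 2913, 3135, 2267 and 4139.99 in AdCKO. That was 35.2% of Control, from 8583 ± 491 to 3019 ± 705 (SD, n = 5 each, SE of the log2 fold change 0.14, limma adjusted p = 1.33e-06). Acadvl shares 42.9% of its annotated exon bases with Dvl2 on the opposite strand. Acadl, the long-chain enzyme and the most abundant of the 19, went from 12861 ± 376 to 5126 ± 909.6 (SD, n = 5 each, 39.9% of Control, log2 fold change -1.34, limma adjusted p = 1.05e-06). Acadm, the medium-chain enzyme, read 8857, 8559, 8411, 8663 and 8626 in Control and 2924, 3189.5, 3686, 2927 and 4464 in AdCKO, and fell to 39.9% of Control (log2 fold change -1.35, SE 0.12, limma adjusted p = 9.54e-07). Its Control libraries spanned a narrow range, with an SD of 162 on a mean of 8623. Acads, the short-chain enzyme, fell to 36.0% of Control (2707 ± 269 to 976 ± 157, SD, n = 5 each, log2 fold change -1.48, limma adjusted p = 2.53e-07). Acadsb, which acts on short branched chains from isoleucine, was the least abundant of the 5. It read 766, 634, 724, 599 and 645 in Control and 249, 283, 234, 276 and 294 in AdCKO, 39.7% of Control (log2 fold change -1.33, SE 0.09, limma adjusted p = 1.15e-07).

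Within a library the balance of the long-chain Acadl to the medium-chain Acadm barely moved. Acadl over Acadm had a geometric mean of 1.49 in Control and 1.49 in AdCKO, and the 95% interval of the log2 difference, -0.06 to 0.05, was the narrowest of the 18 ratios. Acadvl over Acadm was lower in AdCKO, 0.994 against 0.872, with no overlap between the groups (log2 difference -0.19, 95% interval -0.34 to -0.04, exact permutation p = 0.0079, adjusted p = 0.0204). Without AdCKO replicate 4 that ratio no longer passed (exact permutation test, adjusted p = 0.0635). For Acads over Acadm the log2 difference was -0.13 (95% interval -0.34 to 0.05) and for Acadsb over Acads 0.15 (95% interval -0.14 to 0.43). Neither passed the threshold.

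For long chains, the mitochondrial trifunctional protein carries out the remaining steps. Its alpha subunit, Hadha, holds the hydratase and the dehydrogenase, and its beta subunit, Hadhb, holds the thiolase. Hadha (mm9 chr5:30444844-30481520, minus strand) read 6759, 7359.8, 6331, 7108 and 7023 in Control and 2854, 2944, 3294, 2785 and 4152 in AdCKO, 46.4% of Control (log2 fold change -1.12, SE 0.11, limma adjusted p = 3.11e-06), but -0.34 and not called with quantile normalization (limma adjusted p = 0.0110). Hadhb (mm9 chr5:30481793-30511133, plus strand) read 5359, 4752, 4644, 4815 and 5118 in Control and 1349, 1460.2, 1885, 1504 and 2114 in AdCKO, 33.7% of Control (log2 fold change -1.59, SE 0.12, limma adjusted p = 3.38e-07). Both subunits fell without overlap between the groups, and the beta subunit fell further. Hadha over Hadhb within a library was 1.26, 1.55, 1.36, 1.48 and 1.37 in Control and 2.12, 2.02, 1.75, 1.85 and 1.96 in AdCKO. The geometric mean of that ratio rose from 1.40 to 1.93 (log2 difference 0.47, 95% interval 0.31 to 0.64, exact permutation p = 0.0079, adjusted p = 0.0204). Every AdCKO ratio lay above every Control ratio.

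Hadha and Hadhb lie head to head and are read outward from 1 short stretch between their annotated starts. That stretch is shown because both subunits share it while their RNA fell unequally. It is the plus strand of mm9 chr5:30481521-30481792, 272 bases with a GC content of 60.3%, with Hadha to the left on the minus strand and Hadhb to the right on the plus strand. Capitals mark the GC boxes (GGGCGG), which start at bases 183 and 248 of the stretch.
Hadha-Hadhb intergenic region: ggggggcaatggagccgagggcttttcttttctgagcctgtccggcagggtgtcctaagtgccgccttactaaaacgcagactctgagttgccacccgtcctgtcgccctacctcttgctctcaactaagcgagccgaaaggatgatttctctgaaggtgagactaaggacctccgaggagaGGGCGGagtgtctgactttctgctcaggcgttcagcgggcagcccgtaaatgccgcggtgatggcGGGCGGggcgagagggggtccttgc
GC boxes are common in promoters. They were found for 24 of the 31 members with a promoter available (77.4%) and for 69.8% of tested genes with one.

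Medium and short chains pass through separate enzymes, and of the steps of the pathway these had the largest median decrease, with a log2 fold change of -1.58. Echs1, the short-chain enoyl-CoA hydratase (mm9 chr7:147291622-147302322, minus strand), went from 4383 ± 208 to 1472 ± 229 (SD, n = 5 each, log2 fold change -1.58, SE 0.10, limma adjusted p = 7.87e-08). Hadh, the medium- and short-chain hydroxyacyl-CoA dehydrogenase, read 8737, 10125, 8724, 8329.5 and 8714 in Control and 2922, 3178, 3741, 2822 and 4434 in AdCKO, 38.3% of Control (log2 fold change -1.40, SE 0.13, limma adjusted p = 1.28e-06). Hadh fell more than its long-chain counterpart Hadha did, and the ratio of Hadh to Hadha went from 1.29 to 1.06 without overlap (log2 difference -0.28, 95% interval -0.40 to -0.14, exact permutation p = 0.0079, adjusted p = 0.0204). Acaa2, the thiolase that releases acetyl-CoA, read 10009.8, 9452, 8952, 8345 and 8814 in Control and 2417, 2278, 3174, 2228 and 3812 in AdCKO. Its fall to 30.5% of Control was the largest of the 35 members in the values as deposited (log2 fold change -1.74, SE 0.15, limma adjusted p = 7.03e-07).

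The Echs1 promoter is shown because, of the 31 members with a promoter available, Echs1 alone held the composite C/EBP-ATF letters TTGCATCA. Of tested genes with a promoter, 0.747% held them. Such composites are bound by pairs of C/EBP and ATF family proteins in stress responses, and a match in letters says nothing of binding. The window is RefSeq's in GRCm38.p6, chr7:140116372-140116671 on the minus strand. Capitals mark TGATGCAA, the composite on the other strand, at base 87 and AGGTCA at base 168.
Echs1 promoter: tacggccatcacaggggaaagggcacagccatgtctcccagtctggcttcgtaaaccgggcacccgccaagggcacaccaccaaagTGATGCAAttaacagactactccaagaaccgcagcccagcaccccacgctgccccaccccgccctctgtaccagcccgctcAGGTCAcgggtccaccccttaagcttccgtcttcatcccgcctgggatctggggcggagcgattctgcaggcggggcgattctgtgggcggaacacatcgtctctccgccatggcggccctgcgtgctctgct
The longer letters TNAAGGTCA, a response element of the oestrogen-related receptors, were found for 0 of the 31 members and for 0.945% of tested genes with a promoter. The palindromic NRF1 site was held by 4 of 31 members (12.9%, Dld, Etfb, Etfdh and Sucla2) and by 11.9% of these tested genes, and CCAAT by 15 of 31 (48.4%) and 42.3%. Both strands were searched in each case, and the oestrogen-related receptor element contains the letters AGGTCA. Promoters of the other 4 members were not used here.

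Unsaturated chains need extra enzymes that move or reduce a double bond. The 2 delta(3,2)-enoyl-CoA isomerases both fell, by different amounts. Eci1 (mm9 chr17:24563628-24576261, plus strand) read 3713, 4317, 3944, 3733 and 3781 in Control and 1177, 1138, 1234, 1019.98 and 1728 in AdCKO, 32.3% of Control (log2 fold change -1.65, SE 0.12, limma adjusted p = 3.18e-07). Eci2, a second isomerase found in peroxisomes as well as mitochondria, read 857, 778, 763, 770.2 and 806 in Control and 429, 420.3, 443, 391 and 435 in AdCKO, 53.3% of Control (log2 fold change -0.91, SE 0.06, limma adjusted p = 1.40e-07). Eci2 had the smallest decrease of the 18 that fell in the values as deposited. The ratio of Eci1 to Eci2 dropped from 4.90 to 2.93 with no overlap between groups (log2 difference -0.74, 95% interval -0.99 to -0.45, exact permutation p = 0.0079, adjusted p = 0.0204). Decr1, the mitochondrial dienoyl-CoA reductase, fell to 52.1% of Control (2367 ± 163 to 1235 ± 168, SD, n = 5 each, log2 fold change -0.95, limma adjusted p = 3.04e-06).

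Electrons from the acyl-CoA dehydrogenases pass to the electron transfer flavoprotein (subunits Etfa and Etfb) and from it, by Etfdh in the inner membrane, to ubiquinone. Etfdh read 3675, 3473, 3082, 3539 and 3460.1 in Control and 1121, 1136, 1299, 996 and 1497 in AdCKO, 35.1% of Control (log2 fold change -1.52, SE 0.11, limma adjusted p = 1.79e-07). Etfb read 6626, 7597, 7352, 6422 and 6730.02 in Control and 3079.9, 3378, 3624, 3100.4 and 4692 in AdCKO, 51.5% of Control (log2 fold change -0.97, SE 0.12, limma adjusted p = 1.58e-05), but -0.19 and not called with quantile normalization (limma adjusted p = 0.118). Etfa fell to 45.3% of Control (3597 ± 255 to 1631 ± 346, SD, n = 5 each, log2 fold change -1.16, limma adjusted p = 7.67e-06). The membrane enzyme had the largest decrease of these 3, while the ratio of Etfa to Etfb did not pass (log2 difference -0.19, 95% interval -0.42 to 0.03, exact permutation p = 0.0873, adjusted p = 0.121), although it passed without Control replicate 3 (exact permutation test, adjusted p = 0.0204).

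TCA enzymes were lower too, with log2 fold changes from -1.70 to -0.31. Of the 16, 15 were called lower, 0 higher and 1, Idh2, was not called, beside 28.0% of all tested genes called lower. In 9 of the 16 a log2 fold change of -1 or less was called, beside 6.16% of all tested genes, and the median log2 fold change of the 16 was -1.09. With quantile normalization Cs, Idh3a, Idh2 and Mdh2 turned to small positive values that were not called. In 15 of 16 every AdCKO library lay below every Control library, beside 26.4% of all tested genes. The 13 mitochondrial enzymes (12 called lower) had a median of -1.27, and the 3 cytosolic forms (3 called lower) a median of -0.60. Summed levels were 68792 to 77500 in the Control libraries and 30557 to 45554 in the AdCKO libraries, or 2.07% to 2.30% and 1.27% to 1.84% of all normalized reads. Over the whole list, 33 of 35 members were called lower, beside the same 28.0%.

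**Figure D2:**
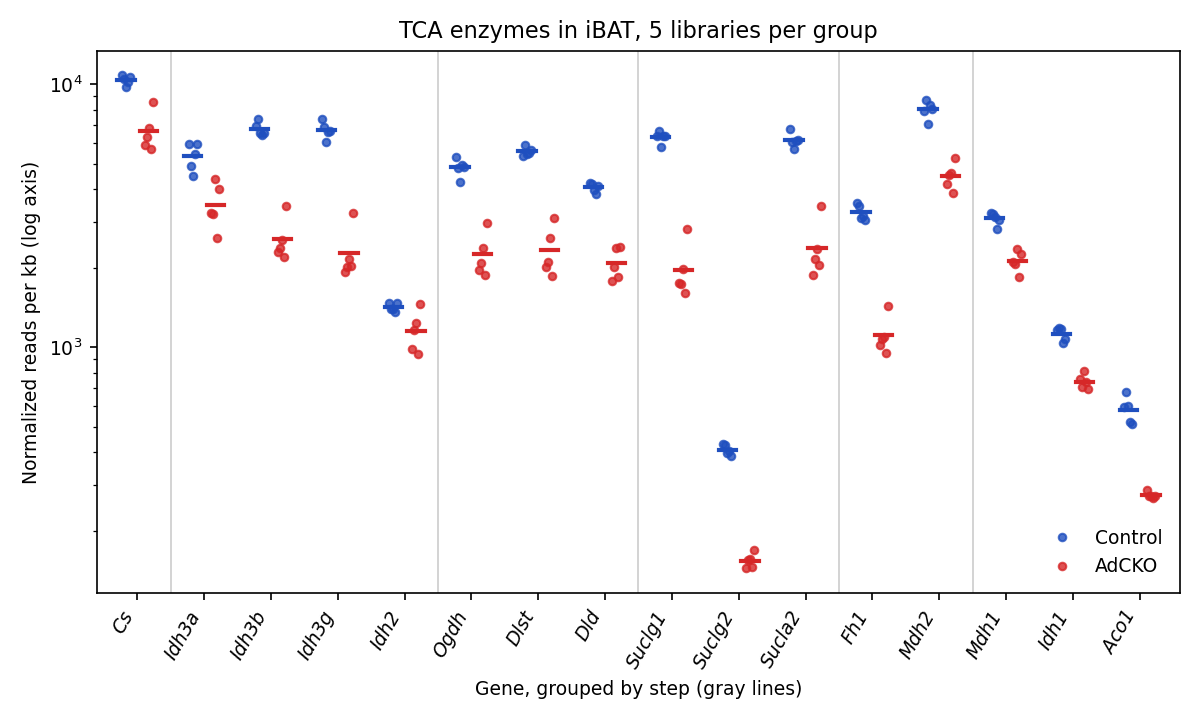
Level of each of the 16 TCA enzymes in every library, in normalized reads per kb on a log axis, ordered by step with the cytosolic forms last. Points are single libraries, 5 Control and 5 AdCKO, and bars mark group means. The groups overlap for Idh2, and for each of the other 15 the AdCKO points lie below the Control points.

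Citrate synthase (Cs), which joins acetyl-CoA to oxaloacetate and opens the cycle, was one of the least changed. It read 10811, 10451, 9753, 10193 and 10653 in Control and 5870.4, 6291, 6795, 5683 and 8576 in AdCKO, 64.0% of Control (log2 fold change -0.66, SE 0.12, limma adjusted p = 3.01e-04), but -0.18 with every library at the same total and 0.15 with quantile normalization, neither of them called. The groups did not overlap, and AdCKO replicate 5 was nearest to Control. With the 5 Control libraries against the 2 AdCKO libraries of low muscle markers alone, the log2 fold change was -0.44 and was no longer called (limma adjusted p = 0.0244).

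The isocitrate dehydrogenases split. The NAD-dependent enzyme of the cycle has a catalytic alpha subunit (Idh3a) and 2 regulatory subunits (Idh3b and Idh3g), and Idh2 is the NADP-dependent mitochondrial form. Idh3g read 7386, 6853, 6059.9, 6583 and 6658 in Control and 1929, 2029, 2162, 2041 and 3241 in AdCKO, 34.0% of Control (log2 fold change -1.58, SE 0.13, limma adjusted p = 7.59e-07). Idh3b read 6972, 7356, 6517, 6435 and 6504 in Control and 2301, 2389, 2557, 2211 and 3442 in AdCKO, 38.2% of Control (log2 fold change -1.41, SE 0.12, limma adjusted p = 6.93e-07). Both regulatory subunits thus fell with no overlap between groups. The catalytic Idh3a read 5916, 4899, 4470.3, 5430.4 and 5926 in Control and 3249, 3217, 4385, 2612 and 4001 in AdCKO, 65.5% of Control (log2 fold change -0.62, SE 0.14, limma adjusted p = 0.0019), but -0.14 at the same total and 0.11 with quantile normalization, neither of them called. Its groups came close, since AdCKO replicate 3 at 4385 lay just under the lowest Control library at 4470.3. In the 7 libraries of low muscle markers the Idh3a fold change was -0.34 and was not called (limma adjusted p = 0.0718). Within a library Idh3a over Idh3b was 0.849, 0.666, 0.686, 0.844 and 0.911 in Control and 1.41, 1.35, 1.71, 1.18 and 1.16 in AdCKO. In Control the regulatory subunit was the more abundant RNA and in AdCKO the catalytic one, in every library (geometric means 0.785 and 1.35, log2 difference 0.78, 95% interval 0.47 to 1.07, exact permutation p = 0.0079, adjusted p = 0.0204). Within the regulatory pair, Idh3g over Idh3b moved less and did not pass (log2 difference -0.18, 95% interval -0.30 to -0.06, exact permutation p = 0.0317, adjusted p = 0.0635) unless Control replicate 3 or AdCKO replicate 5 was left out (adjusted p = 0.0390 and 0.0476 by the same exact test).

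Idh2 read 1469, 1404, 1395, 1362 and 1469 in Control and 984, 1160.4, 1239, 945 and 1457 in AdCKO. AdCKO replicate 5 lay within the Control range and the other 4 below it (mean 81.5% of Control, log2 fold change -0.31, SE 0.11, limma adjusted p = 0.0233, exact permutation p = 0.0317). Without AdCKO replicate 5 the fold change was -0.40 and was called (limma adjusted p = 0.00188), and in the 7 libraries of low muscle markers it was -0.08. Neither Idh2 over Idh3a (log2 difference 0.31, 95% interval 0.08 to 0.54, adjusted p = 0.0714 by the exact permutation test) nor Idh1 over Idh2 (-0.29, -0.62 to 0.01, adjusted p = 0.0833 by the same exact test) passed. Idh2 over Idh3a did pass without Control replicate 3 or AdCKO replicate 3 (exact permutation test, adjusted p = 0.0390 and 0.0476), and Idh1 over Idh2 without AdCKO replicate 1 (0.0476).

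The 2-oxoglutarate dehydrogenase complex consists of the dehydrogenase itself (Ogdh), the succinyltransferase core (Dlst) and the dihydrolipoamide dehydrogenase (Dld) that it shares with other complexes such as pyruvate dehydrogenase. Dlst read 5363, 5897, 5419, 5503 and 5647 in Control and 2019, 2109, 2596, 1863 and 3113 in AdCKO, 42.0% of Control (log2 fold change -1.27, SE 0.13, limma adjusted p = 3.23e-06). The shared Dld read 4219.9, 4178, 3965, 3829 and 4113 in Control and 1790.2, 2029, 2397, 1845 and 2404 in AdCKO, 51.5% of Control (log2 fold change -0.97, SE 0.10, limma adjusted p = 3.34e-06). Ogdh fell to 46.8% of Control (4836 ± 375 to 2264 ± 444, SD, n = 5 each, log2 fold change -1.11, limma adjusted p = 6.75e-06). The 3 subunits thus moved by similar amounts, and Dlst over Ogdh did not pass (log2 difference -0.16, 95% interval -0.31 to -0.01, exact permutation p = 0.0476, adjusted p = 0.0779) unless Control replicate 1 was left out (adjusted p = 0.0238 by the same exact test).

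Succinyl-CoA ligase makes a nucleoside triphosphate directly. Its alpha subunit, Suclg1, pairs with Sucla2 in the ADP-forming enzyme or with Suclg2 in the GDP-forming one. All 3 fell by a large factor. Suclg1 read 6385, 6646, 5761, 6388 and 6379 in Control and 1754, 1739.8, 1981, 1605 and 2808 in AdCKO, 31.3% of Control (log2 fold change -1.70, SE 0.13, limma adjusted p = 4.65e-07), the largest decrease of the 16 in the values as deposited. Sucla2 read 6755, 6043, 5687, 6094 and 6151 in Control and 1884, 2168, 2364, 2052 and 3444 in AdCKO, 38.8% of Control (log2 fold change -1.40, SE 0.14, limma adjusted p = 3.56e-06). Suclg2 read 429.7, 425, 398, 404 and 385 in Control and 145, 155, 158, 147 and 169.7 in AdCKO, 37.9% of Control (log2 fold change -1.40, SE 0.06, limma adjusted p = 1.05e-08). Sucla2 was therefore the more abundant beta subunit by more than 10-fold in every library, and no shift between the beta subunits was found. The ratio of Suclg2 to Sucla2 was 0.0665 in Control and 0.0664 in AdCKO (95% interval of the log2 difference -0.29 to 0.20). Suclg1 over Sucla2, by contrast, was 0.945, 1.10, 1.01, 1.05 and 1.04 in Control and 0.931, 0.802, 0.838, 0.782 and 0.815 in AdCKO, lower without overlap (log2 difference -0.30, 95% interval -0.42 to -0.17, exact permutation p = 0.0079, adjusted p = 0.0204).

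At the end of the cycle, fumarase (Fh1) read 3551, 3437, 3106, 3165 and 3041 in Control and 1019, 1074, 1096, 955 and 1443 in AdCKO, 34.3% of Control (log2 fold change -1.56, SE 0.11, limma adjusted p = 1.61e-07). Mitochondrial malate dehydrogenase (Mdh2) read 7943, 8703, 7094, 8373 and 8030.1 in Control and 4169.9, 4523, 4582, 3858 and 5240.4 in AdCKO, 55.7% of Control (log2 fold change -0.85, SE 0.10, limma adjusted p = 1.22e-05). Both fell without overlap, fumarase by more, and with quantile normalization Mdh2 stood at 0.01 and was not called.

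The cytosolic forms feed shuttles and NADPH supply, not the cycle itself. Cytosolic malate dehydrogenase (Mdh1) read 3229.7, 3219, 3127, 2821 and 3062 in Control and 2119, 2083, 2363, 1849 and 2265 in AdCKO, 69.1% of Control (log2 fold change -0.54, SE 0.08, limma adjusted p = 1.06e-04). Aco1, the cytosolic aconitase that doubles as iron regulatory protein 1, read 593, 679, 598, 521 and 513 in Control and 287, 273, 271, 269 and 272 in AdCKO, 47.2% of Control (log2 fold change -1.07, SE 0.08, limma adjusted p = 2.68e-07). Idh1, cytosolic NADP-dependent isocitrate dehydrogenase, fell to 65.7% of Control (1129 ± 65.9 to 742 ± 45.6, SD, n = 5 each, log2 fold change -0.60, limma adjusted p = 8.44e-06). Mdh1 fell less than its mitochondrial counterpart. The ratio of Mdh1 to Mdh2 went from 0.386 to 0.478 (log2 difference 0.31, 95% interval 0.13 to 0.49, exact permutation p = 0.0159, adjusted p = 0.0357), with overlap between the groups. It no longer passed without Control replicate 2, 4 or 5 or without AdCKO replicate 2 or 4 (exact permutation test, adjusted p = 0.0536 each). At the same total Mdh1 (-0.06) and Idh1 (-0.12) were not called, nor was Mdh1 with quantile normalization (-0.02).

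**Figure D3:**
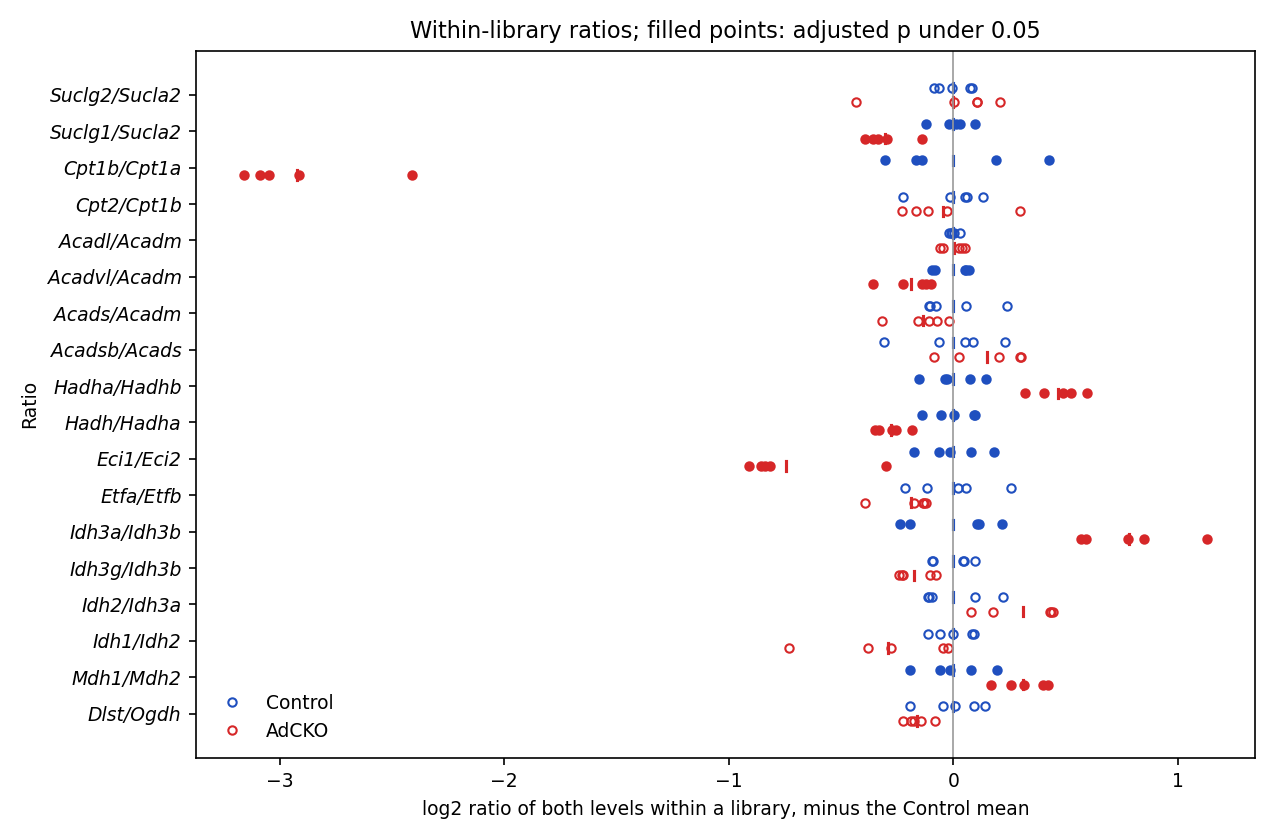
Log2 of the 18 within-library ratios of members, minus the Control mean of each ratio, with 1 point per library, Control in blue and AdCKO in red, short vertical bars at group means and filled points for the 8 ratios past the threshold. The AdCKO mean of Cpt1b over Cpt1a lies far to the left at -2.92, those of Hadha over Hadhb (0.47), Idh3a over Idh3b (0.78) and Mdh1 over Mdh2 (0.31) lie to the right, and the means of Acadl over Acadm and Suclg2 over Sucla2 lie within 0.01 of 0.

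Of the 18 ratios, 8 passed an adjusted p of 0.05, 5 of them lower and 3 higher in AdCKO, and 7 of the 8 showed no overlap between the groups. For those 7, the 2 AdCKO libraries of low muscle markers, replicates 3 and 5, lie outside the Control range by that very choice, which adds no support. For Mdh1 over Mdh2, where the groups overlapped, 1 of the 2 lay outside it. By these ratios the decrease was uneven within the trifunctional protein, the NAD-dependent isocitrate dehydrogenase and the ADP-forming succinyl-CoA ligase.

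**Figure D4:**
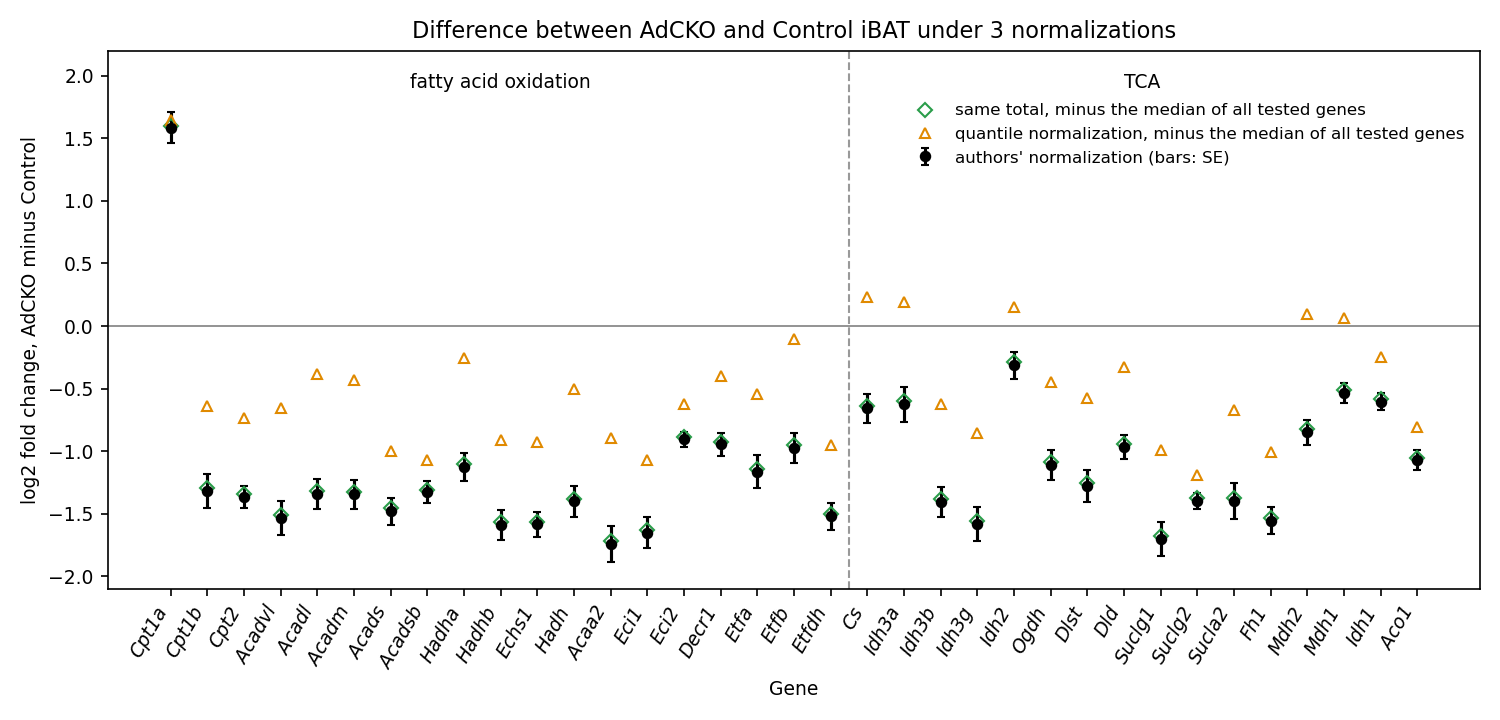
Log2 fold change of each of the 35 members (AdCKO minus Control), as black points with standard error bars for the values as deposited, and, relative to the median of all tested genes, as green diamonds after scaling every library to the same total and as orange triangles after quantile normalization. The diamonds lie on the points, and the triangles of Cs, Idh3a, Idh2, Mdh2 and Mdh1 lie above 0. As deposited, Cpt1a lies at 1.59, the other fatty acid oxidation enzymes between -1.74 and -0.91 and the TCA enzymes between -1.70 and -0.31.

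The size of these decreases depends on how libraries are scaled. When every library was scaled to the same total, the all-gene median of the log2 fold change moved from -0.01 to 0.46 and 9.77% of all genes were called lower and 60.6% higher, in place of 28.0% and 25.6%. Fatty acid oxidation members called lower stayed at 18 and TCA members called lower went from 15 to 11. Relative to the median of all genes, the fatty acid oxidation median was -1.33 as deposited and -1.32 after rescaling, and the TCA median -1.08 and -1.07. In both scalings 34 of the 35 members, all but Cpt1a, lay below the median of all genes. Quantile normalization, which forces every library to the same distribution, gave smaller values, with medians of -0.72 and -0.59, 16 and 11 members called lower, and 31.1% of all genes lower and 22.5% higher. There 29 of the 35 members lay below the median of all genes. Leaving out the 3 AdCKO libraries with muscle RNA changed the values less. Against the 2 AdCKO libraries of low muscle markers, 18 fatty acid oxidation members were called lower with a median of -1.13, and 13 TCA members with a median of -0.91, beside 19.3% of all genes.

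AdCKO libraries also differed more among themselves than Control libraries did. The coefficient of variation of the members had a median of 6.27% in Control and 17.7% in AdCKO, and was higher in AdCKO for 31 of the 35. AdCKO replicate 5 was the highest of its group for 29 of the 35 members, 17 of the 19 fatty acid oxidation enzymes and 12 of the 16 TCA enzymes, and replicate 4 was the lowest for 23. Relative to the other AdCKO libraries, replicate 5 lay higher by a median of 0.47 on the log2 scale over the fatty acid oxidation members and 0.46 over the TCA members, and by 0.00 over all tested genes. Replicates 4 and 5 thus stood at opposite ends of the AdCKO group in both pathways. Replicate 5 also had the most Ucp1 RNA of its group, 18828, and replicate 4 the least, 7895, with the muscle marker sums given above. Summed over the fatty acid oxidation members, replicates 3 and 5, of low muscle markers, reached 40238 and 49532. Replicates 1, 2 and 4 reached 32088 to 35744. The TCA sums were 38143 and 45554 against 30557 to 34037. The part of muscle RNA in this spread was not tested.

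**Figure D5:**
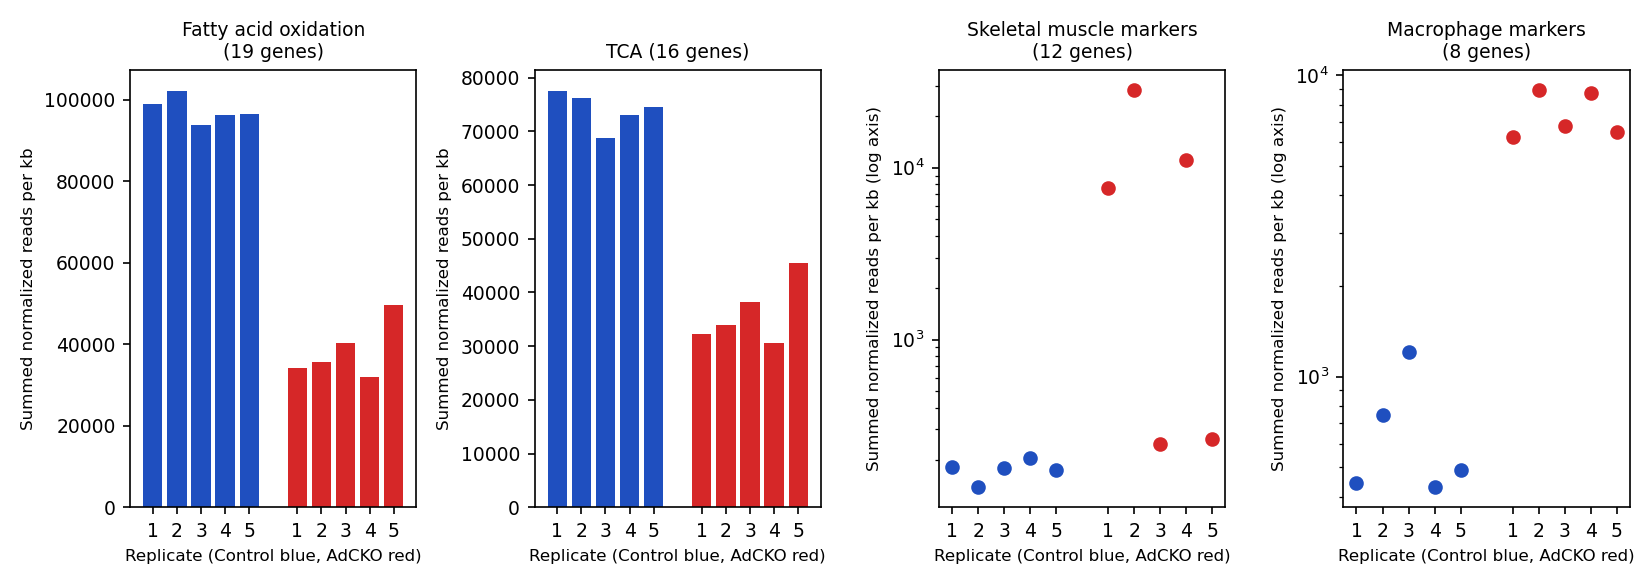
Summed level of the 19 fatty acid oxidation enzymes, the 16 TCA enzymes (bars, linear axes), the 12 skeletal muscle markers and the 8 macrophage markers (points, log axes) in each of the 10 libraries, in normalized reads per kb. The summed fatty acid oxidation level was 93863 or more in each Control library and 49532 or less in each AdCKO library, muscle markers were high in AdCKO replicates 1, 2 and 4, and macrophage markers were higher in each AdCKO library than in any Control library.

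Most of the genes listed beside the members were lower too, and some of them, such as Acacb, are not oxidation enzymes. Of 21 further genes listed for fatty acid oxidation and its supply, 20 could be tested, with a median log2 fold change of -1.34. Of these, 19 were called lower and 1 higher, beside 28.0% and 25.6% of all tested genes. Among those with the smallest p, Acacb, the acetyl-CoA carboxylase whose product malonyl-CoA inhibits carnitine palmitoyltransferase 1, fell from 2470.2 ± 304 to 587 ± 75.4 (SD, n = 5 each, log2 fold change -2.07, limma adjusted p = 2.46e-08). Acad8 (isobutyryl-CoA dehydrogenase, -1.33), Hsd17b10 (a short-chain hydroxyacyl-CoA dehydrogenase, -1.21) and Eci3 (-1.31) fell by similar log2 fold changes to each other. Acot2, a mitochondrial acyl-CoA thioesterase that releases free fatty acid, was called higher and rose from 502 ± 68.4 to 1236 ± 425 (SD, n = 5 each, log2 fold change 1.25, limma adjusted p = 1.09e-04). Cpt1c, the brain form of carnitine palmitoyltransferase 1, was too low to be tested with limma, with means of 5.53 ± 0.708 and 9.67 ± 1.46 (SD, n = 5 each, no overlap, exact permutation p = 0.0079). Without AdCKO replicates 1, 2 and 4, 18 of the 20 were called lower and 1 higher, with a median of -1.24. In that fit 19.3% of all tested genes were called lower and 18.7% higher.

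Of 10 further genes listed for the TCA cycle, among them the pyruvate dehydrogenase and succinate dehydrogenase subunits, 10 were called lower, beside 28.0% of all tested genes. Their median was -1.21. There were 9 called lower without AdCKO replicates 1, 2 and 4, with a median of -0.99, beside 19.3% of all tested genes. Pdha1, the E1 alpha subunit of pyruvate dehydrogenase, had a log2 fold change of -1.63, Sdha, the flavoprotein of succinate dehydrogenase, one of -1.61, Dlat, the pyruvate dehydrogenase core, one of -1.36 and Pdhx, which anchors Dld to that core, one of -0.80 (limma adjusted p = 1.61e-07, 2.96e-07, 3.45e-08 and 6.06e-07).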

How the data were processed

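PolyA RNA-seq of iBAT from 5 Control and 5 AdCKO mice was analysed, with groups and replicate numbers from the sample labels. The authors used STAR for mapping to mm9, iRNA-seq for counting on exons and DESeq2 for normalization (versions not given in the sources used here). The deposited signal is the number of normalized reads per kb of counted exon, with 1 RefSeq transcript per gene. Counts were not used here, and low values did not fall on whole reads (at most 24.0% within 0.1 read of a step, 20% by chance), so depth before normalization is unknown and precision is the spread between mice. The authors' deposited fold changes, adjusted p-values and call lists were not used. Members and lists were chosen with earlier results of these data known.

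Genes with a mean of at least 10 in either group (11244 of 15075) were tested on log2(value + 1) with limma 3.58.1 in R 4.3.3 (eBayes with an intensity trend, two-sided, Benjamini-Hochberg, threshold 0.01). DESeq2, which the study ran on counts, could not be used on these values. The fit was tested on simulated data first. The 18 within-library ratios were compared by an exact two-sided permutation test with adjustment over the 18 and a threshold of 0.05. The 95% intervals hold the shifts that this test did not reject. All 35 members are named. Values in every library are given for the largest and smallest change of each step, for both genes of a ratio that passed, and for members not called or called higher. From other lists at most 4 genes with the smallest p, and called genes that go against their list, are named. Some genes of the ketone body and propionate list are not reported here. The single values of Cpt2 and of Cpt1c, and the brown adipocyte markers other than Ucp1, were chosen after they were seen. So were Acly, Slc25a1, Me1, Pcx and Glud1. Python 3.11.15 and matplotlib 3.10.9 made the figures. The alternatives were pseudocounts of 0.1 and 10, no filter, equal totals, quantile normalization, limma with no trend, a robust trend or array weights, a replicate block, each library left out, a threshold of 0.05 and, chosen after seeing the data, libraries whose muscle markers summed to less than 1000. Genes that share exon bases were found in the mm9 annotation, and the counting is not stated to use strand.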

Additional observations from a re-analysis of the deposited data

Results flagged for a closer look

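In 8 of the 72 groups of 5 libraries examined, the highest or lowest library stood apart from the others by Dixon's 95% criterion, which chance gives in 3.6 of 72. In 6 of the 8 the library was AdCKO replicate 5, on the side of Control. It read 1838 for Cpt2, with a gap to the next library of 0.944 of the group's range, 1253 for Acads (0.853) and 1879 for Echs1 (0.863). Among TCA genes it read 3442 for Idh3b (0.719), 3241 for Idh3g (0.822) and 1443 for Fh1 (0.711). These 6 genes share the library, so the flags are not independent of each other. AdCKO replicate 5 had a low skeletal muscle marker sum (263, with 247 in AdCKO replicate 3) and the part of this in its values was not tested. The other flags were Hadh in Control replicate 2, at 10125 (0.773), and Aco1 in AdCKO replicate 1, at 287 (0.745).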

How the results depend on the processing

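Fatty acid oxidation members called lower numbered 16 to 18 and TCA members 11 to 16 over the alternatives, and 18 and 15 to 16 when a library was left out. Signs turned under scalings: under quantile normalization, which forces all libraries to 1 distribution, Cs went to 0.15, Idh3a to 0.11, Idh2 to 0.068 and Mdh2 to 0.015 on the log2 scale, and Idh2 to 0.17 at equal totals. None of these 5 values passed the threshold (limma adjusted p = 0.128, 0.528, 0.589, 0.875 and 0.150). Hadha (-0.34), Etfb (-0.19) and Mdh1 (-0.02) were no longer called under quantile normalization, nor were Cs (-0.18), Idh3a (-0.14), Mdh1 (-0.06) and Idh1 (-0.12) at equal totals. The cause was not tested. Ratios past the threshold numbered 6 (without AdCKO replicate 4) to 11 (without Control replicate 3) when 1 library was left out. The log2 difference of Suclg2 over Sucla2, which was not past the threshold, turned to 0.00197 and 0.048 with pseudocounts of 1 and 10 and ran from -0.056 to 0.104 when 1 library was left out, and that of Acadl over Acadm ran from -0.010 to 0.017. With the replicate block, 0 ratios passed by exact paired sign flips and 0 had an unadjusted p below 0.05, because 5 pairs allow no p below 0.0625, which 9 of 18 reached. The block left the calls at 18 and 15. Same-numbered libraries did not deviate together (correlations of -0.27 to 0.10). These correlations cannot tell whether same-numbered mice shared a litter or were processed together. The library depths are not known, so counting error was not assessed.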

Other observations

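Beside the cycle, genes that refill it or move its intermediates across the membrane moved in both directions. Of 15 listed, 14 were tested, 7 were called lower, 6 higher and 1 (Me2, mitochondrial malic enzyme) was not called, with a median log2 fold change of -0.11. Over all tested genes 28.0% were called lower and 25.6% higher. The genes called higher were led by Got1, the cytosolic aspartate aminotransferase of the malate-aspartate shuttle. It read 105, 112, 111, 137 and 122 in Control and 645, 771, 730.02, 523 and 571 in AdCKO, with no overlap (log2 fold change 2.45, SE 0.11, limma adjusted p = 1.13e-08). Its mitochondrial partner Got2 went from 127 ± 22.6 to 258 ± 31.5 (SD, n = 5 each, log2 fold change 1.02), and the shuttle's aspartate-glutamate carrier Slc25a12 from 12.1 ± 0.544 to 49.1 ± 23.1 (1.81). Slc25a12 read 58.8, 82.3, 27.9, 49.5 and 27.0 in AdCKO replicates 1 to 5, highest in replicates 1, 2 and 4, which hold skeletal muscle RNA, and without them its log2 fold change was 1.12. Pck2, mitochondrial phosphoenolpyruvate carboxykinase, had a log2 fold change of 1.55, the dicarboxylate carrier Slc25a10 one of 1.35 and Nnt, the NAD(P) transhydrogenase, one of 1.09. Nnt read 32.9, 42.6, 23.0, 34.3 and 20.5 in AdCKO, again highest in those 3 libraries, and its log2 fold change without them was 0.66. The part of muscle RNA in these values was not tested. Without the 3 libraries 7 genes of the list were called lower and 6 higher, beside 19.3% and 18.7% of all tested genes. On the other side, Acly (-2.06), Slc25a1 (-1.73), Me1 (-1.28), Pcx (-0.77) and Glud1 (-0.44) were called lower. Acly had means of 11976 in Control and 2962 in AdCKO. Also called lower were the malic enzyme Me3 (-2.45) and the shuttle's 2-oxoglutarate carrier Slc25a11 (-0.82). In the values as deposited, the malate-aspartate shuttle therefore held genes called in each direction, with Mdh1 and Mdh2 lower. With quantile normalization neither Mdh1 (-0.02) nor Mdh2 (0.01) was called, and Mdh1 was not called at equal totals (-0.06).

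Ketone body and propionate genes mostly fell. Of 8 tested, 7 were called lower, with a median of -1.20, beside 28.0% of all tested genes. There were 6 called lower without AdCKO replicates 1, 2 and 4, beside 19.3% of all tested genes in that fit. Acat1, the acetoacetyl-CoA thiolase, had a log2 fold change of -1.71, Pcca, a propionyl-CoA carboxylase subunit, one of -1.50 and Mut, methylmalonyl-CoA mutase, one of -1.28.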
